A study of Mus musculus with 2 samples.

Results

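The 39 genes described here encode proteins that copy DNA, separate chromosomes or open the cell cycle, and they were read in the adrenal glands of female mice 14 days old. Their rows were picked by gene name from the transcript tables of both libraries, with every read of a gene summed. Of 18111 annotated genes with reads in the series they make up 38; the other, Cenpe, had no read in either library. They fall into 11 genes of DNA replication and deoxynucleotide supply, 25 genes of mitosis and chromosome structure, and the 3 D-type cyclins.

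All animals were B6CASTF1/J, the F1 cross of a C57BL/6 and a CAST parent, untreated as far as the labels say. The study holds 2 long-read RNA libraries, which the labels number as biological replicates 1 and 2, with no treatment, control or second group. The tissue sample of replicate 1 is named for 3 females and that of replicate 2 for a single female, while both library descriptions name 3, so a pool and a single animal cannot be told apart. Both tissue samples also carry the same donor identifier, so the labels do not settle whether the libraries come from separate animals. A comparison of the libraries shows how far the second repeats the first, and every SD over the 2 measures only the spread between them, which may be technical. Every test on reads covers counting error only.

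As background, a dividing cell passes from G1 into S phase, when DNA is copied, and then through G2 into mitosis. D cyclins with Cdk4 or Cdk6 inactivate the retinoblastoma proteins, and the E2F factors so released switch on replication genes. Genes of G2 and mitosis are switched on later, through the B-MYB-MuvB complex and FOXM1 at a promoter element called CHR and through NF-Y at CCAAT boxes. The adrenal gland of a juvenile mouse still grows, and progenitor cells near its capsule renew the steroid-making cortex.

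Replicate 1 held 1065570 reads in annotated genes and replicate 2 held 946553. A level of 3 reads, the limit a count of 0 allows, is 2.82 CPM (reads scaled to 1000000 gene reads) in replicate 1 and 3.17 CPM in replicate 2. The libraries differed in markers of the adrenal and of other tissues. The 8 adrenal cortex markers summed to 5.57% and 2.47% of gene reads, with all 8 lower in replicate 2, and the 8 chromaffin markers to 1.17% and 0.4501%, with 7 lower. The 8 hepatocyte markers summed to 0.0429% and 4.86%, with all 8 higher in replicate 2 and Hnf4a at 0 and 37 reads, and the 6 skeletal muscle markers to 0.00526% and 0.150%, with Myh1 at 0 and 163 reads. The 7 erythroid markers summed to 0.912% and 0.291%, and 8 leukocyte markers to 0.0155% and 0.0256%. The 6 endothelial markers summed to 0.0598% and 0.0444%, with Plvap called lower (352 and 179 reads), 5 not called, and 3 log2 ratios on each side of 0 (median 0.02). The 5 adipocyte markers summed to 0.674% and 0.774%. These differences stand beside every comparison of the libraries below, and their part in it was not tested. In bulk tissue, fewer dividing cells and less RNA per dividing cell cannot be told apart.

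Promoter sequence is given first, ahead of the read numbers. RefSeq windows of 250 bases before to 50 bases after a start (GRCm38.p6, the same assembly as mm10) matched 30 of the 39 genes: 10 of replication, 19 of mitosis and Ccnd3. For each gene the window nearest the start of its leading annotated transcript, the one with most reads here, was taken, at most 539 bases away. The stretches below are the 150 bases before the start, 5′ to 3′ on the gene's own strand, with matches on either strand to E2F, CHR or CCAAT in capitals. Mcm6 (chr1:128359706-128359855, minus strand) and Rrm1 (chr7:102441545-102441694, plus strand) are shown for replication. Cdk1 (chr10:69352913-69353062, minus), Cdc20 (chr4:118437344-118437493, minus), Hmgb2 (chr8:57511693-57511842, plus) and Top2a (chr11:99024190-99024339, minus) are shown for mitosis. They are picked examples: each replication stretch holds an E2F match and each mitosis stretch a CHR match. The windows of Pcna, Mcm2, Tyms and Tk1 held no E2F match, and those of Ccnb1, Birc5, Mad2l1 and Nusap1 no CHR match.
Mcm6: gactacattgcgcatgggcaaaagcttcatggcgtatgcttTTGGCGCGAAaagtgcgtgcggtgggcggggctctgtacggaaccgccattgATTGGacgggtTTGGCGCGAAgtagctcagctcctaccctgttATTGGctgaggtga
Rrm1: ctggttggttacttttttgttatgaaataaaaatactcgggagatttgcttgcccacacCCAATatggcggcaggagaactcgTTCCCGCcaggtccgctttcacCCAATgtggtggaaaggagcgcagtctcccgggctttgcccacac
Cdk1: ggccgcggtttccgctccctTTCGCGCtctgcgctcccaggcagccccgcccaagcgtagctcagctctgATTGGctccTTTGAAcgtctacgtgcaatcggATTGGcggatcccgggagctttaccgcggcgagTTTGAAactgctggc
Cdc20: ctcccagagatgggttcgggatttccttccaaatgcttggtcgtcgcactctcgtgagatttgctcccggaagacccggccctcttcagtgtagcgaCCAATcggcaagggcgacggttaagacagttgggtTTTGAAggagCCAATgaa
Hmgb2: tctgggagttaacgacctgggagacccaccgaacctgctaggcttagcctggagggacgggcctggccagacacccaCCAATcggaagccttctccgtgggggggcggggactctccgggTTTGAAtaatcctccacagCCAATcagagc
Top2a: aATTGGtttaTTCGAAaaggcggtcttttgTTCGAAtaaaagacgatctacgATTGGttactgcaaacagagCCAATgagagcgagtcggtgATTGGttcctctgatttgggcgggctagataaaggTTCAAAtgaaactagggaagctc

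The E2F motif was searched on both strands in 4 spellings: TTCCCGC with TTCGCGC, and TTGCCGC with TTGGCGC. It lay in 6 of 10 replication promoters (60.0%), those of Mcm3, Mcm5, Mcm6, Mcm7, Rrm1 and Rrm2, and in 2 of 19 mitosis promoters (10.5%), those of Cdk1 and Ccnb1. Of the promoters of all 10432 measured genes with a window, 16.8% held it. In Mcm6 the run TTGGCGCGAA, which is an E2F match on both strands at once, occurred with matches starting 109, 106, 46 and 43 bases before the start. Such overlapping E2F matches were seen in 4 replication promoters, 0 mitosis promoters and 26 of all 10432. Rrm1 held a single TTCCCGC 67 bases before its start.

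The CHR motif, TTTGAA or TTCGAA on both strands, had the opposite distribution. It lay in 15 of 19 mitosis promoters (78.9%) and in 2 of 10 replication promoters (20.0%), those of Mcm2 and Mcm7, against 13.6% of all 10432. The match began 18 bases before the start in Cdc20. Hmgb2 held matches 218 and 30 bases before it, of which the second is in the stretch shown, and Cdk1 held CHR matches 71 and 15 bases before it. Top2a held 4 in its whole window, 3 of them in the stretch shown. CCAAT boxes were common to both groups, in 8 of 10 replication and 16 of 19 mitosis promoters, against 38.7% of all. CHR and CCAAT stood together in 15 mitosis promoters, 2 replication promoters and 588 of all 10432 (5.64%). An E2F match shared bases with a CCAAT box in the Mcm7 and Ccnb1 promoters and in 88 of all 10432. These are matches of letters, not shown binding.

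**Figure D1:**
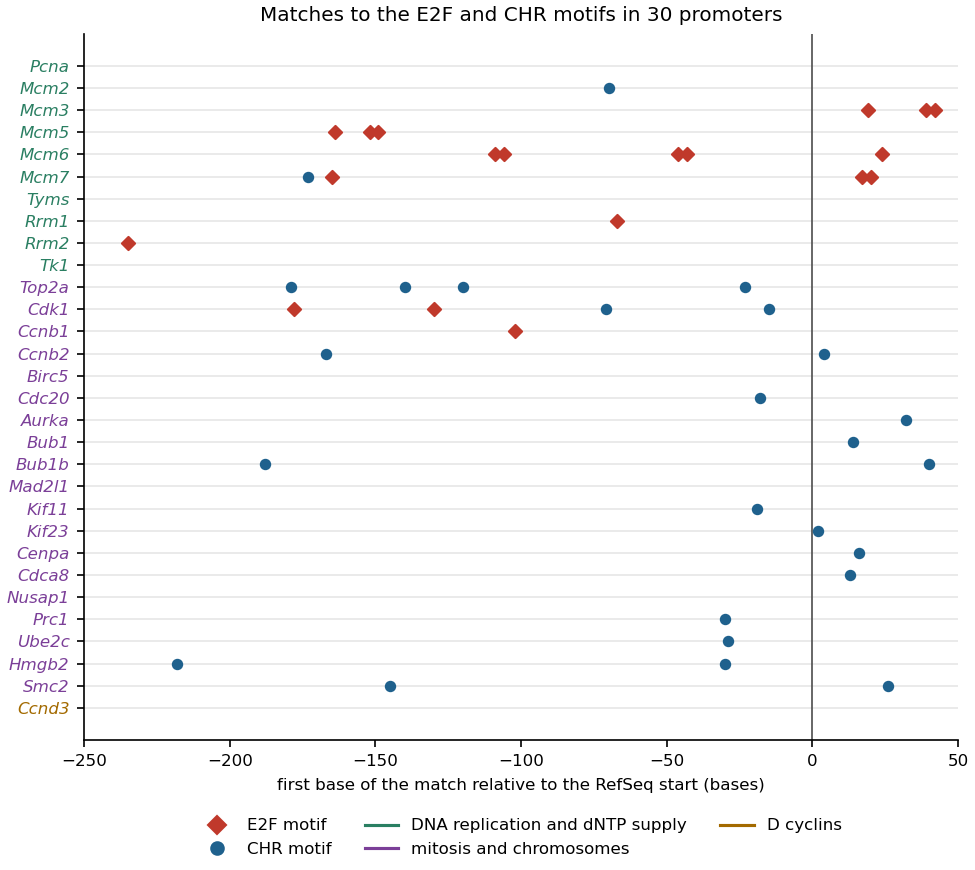
Positions of E2F (diamonds) and CHR (circles) matches in the 30 promoter windows; the x axis is distance in bases from the RefSeq start, each row is a gene, and label colours give its group. E2F matches lie in 6 of 10 replication and 2 of 19 mitosis promoters, and CHR matches in 2 of 10 and 15 of 19.

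Reads were found for 38 of the 39 genes in each library. The 39 genes together took 2627 reads in replicate 1, 0.246% of gene reads, and 1603 reads in replicate 2, 0.169%. The 11 replication genes took 0.104% (exact Clopper-Pearson 95% interval 0.0983 to 0.111) and 0.0828% (0.0771 to 0.0888), a mean of 0.0936 ± 0.0152% (SD, n = 2). The 25 mitosis genes took 0.0975% (0.0917 to 0.104) and 0.0590% (0.0542 to 0.0641), a mean of 0.0782 ± 0.0273%. The D cyclins took 0.0447% (0.0407 to 0.0489) and 0.0276% (0.0243 to 0.0311). All 3 groups took a smaller share of replicate 2, and the replication genes differed least, with a ratio of shares of 1.26 against 1.65 for mitosis and 1.62 for the D cyclins.

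The ratio of mitosis to replication reads does not depend on how the libraries are scaled. Mitosis genes supplied 1039 of 2151 mitosis and replication reads in replicate 1, 48.3% (46.2 to 50.4). In replicate 2 they supplied 558 of 1342, 41.6% (38.9 to 44.3). These intervals, which cover counting error only, do not overlap. The same share over the lists of 50 other mitosis and 51 other replication genes, computed after seeing the data, was 41.9% (40.1 to 43.6) in replicate 1 and 40.6% (38.5 to 42.7) in replicate 2, with intervals that overlap. Whether the members and the other genes differ in this shift was not tested.

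**Figure D2:**
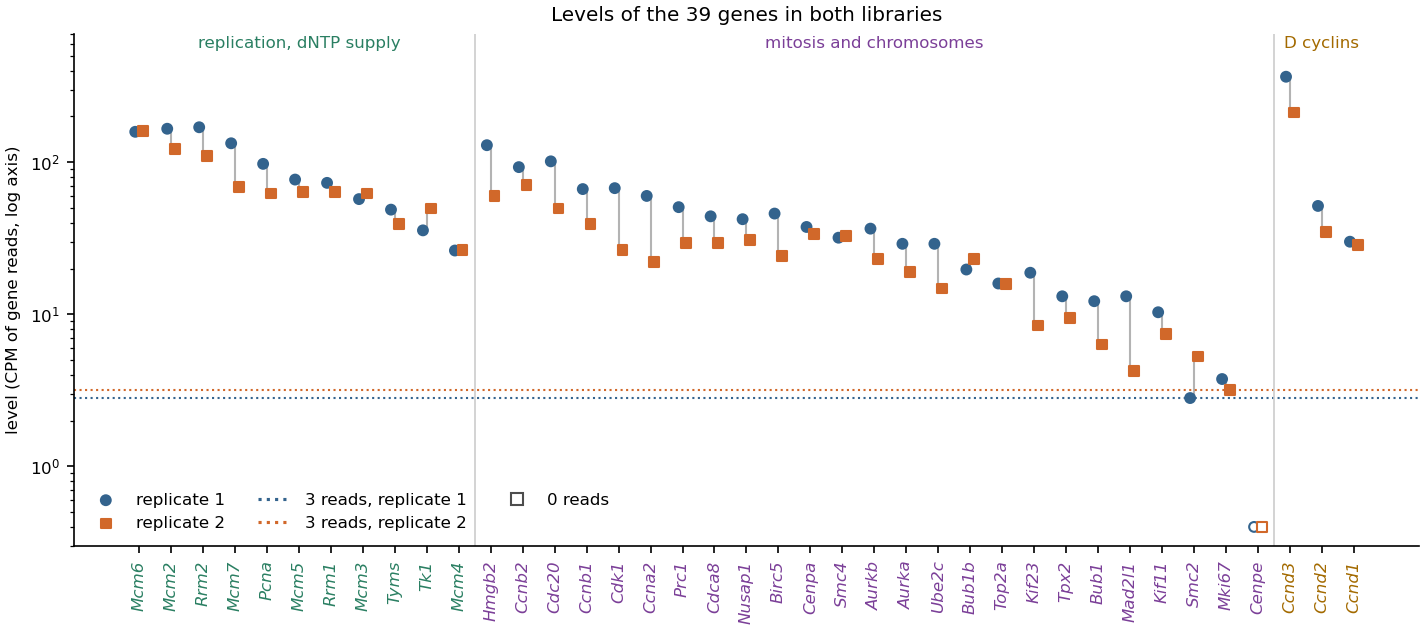
Level of each of the 39 genes in CPM of gene reads (log axis), replicate 1 as circles and replicate 2 as squares, with dotted lines at 3 reads in each library and open symbols for 0 reads. Ccnd3 is the highest at 365 and 212 CPM, and Cenpe has 0 reads in both libraries.

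Of the 39 genes, 33 had at least 20 summed reads and were tested. In replicate 2, 11 of the 33 were lower and 0 were higher by the exact conditional binomial test, with Benjamini-Hochberg adjustment at 0.05 over 9211 genes; at an unadjusted p under 0.05 the counts were 13 and 0. Of all 9211 genes, 17.9% were lower and 8.58% higher in replicate 2, so the 33.3% of these genes called lower lies above a background that is itself tilted downward. The median log2 ratio of replicate 2 over replicate 1 was -0.56 over the 33 genes and -0.28 over all tested genes. By group the medians were -0.28 for 11 replication genes, -0.64 for 19 mitosis genes and -0.56 for 3 D cyclins.

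Scaling moves these directions. With edgeR's TMM scaling 6 of the 33 genes were lower and 0 higher, beside 552 lower and 1151 higher of all 9211. The median of all genes was then 0.00, and the group medians were 0.01, -0.36 and -0.27. With spike-in scaling 0 of the 33 were lower and 3 higher (Mcm3, Mcm6 and Tk1), beside 170 lower and 2071 higher of all 9211. The median of all genes was then 0.31, and the group medians were 0.31, -0.05 and 0.03. A scaling moves every gene by the same amount, so the distance of a group's median from that of all genes is fixed across scalings. The 6 genes called lower under TMM were Mcm7, Cdk1, Ccna2, Cdc20, Hmgb2 and Ccnd3. Under an assumed biological coefficient of variation of 0.2 (edgeR's exact test), 0 of the 33 were called in either direction. Of all 9211 genes, 67 were lower and 446 higher there.

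**Figure D3:**
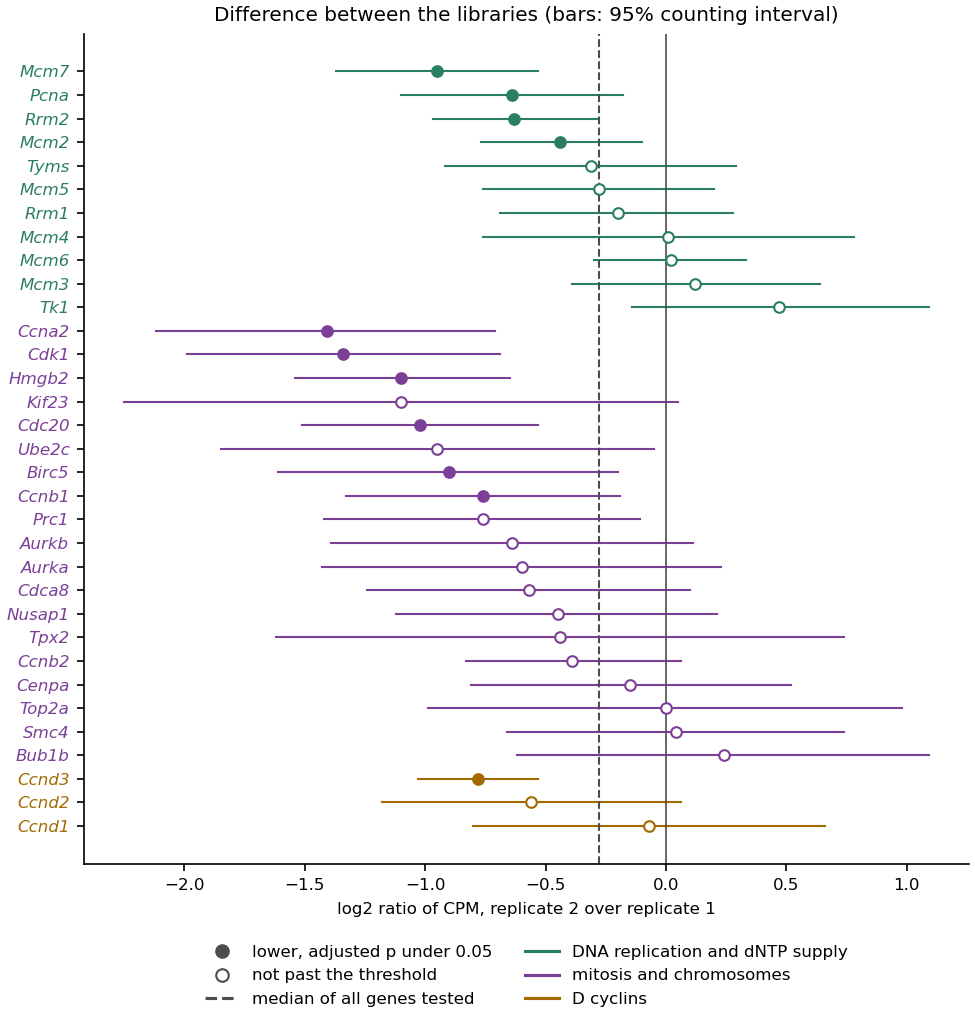
Log2 ratio of CPM, replicate 2 over replicate 1, for the 33 tested genes, with bars for the 95% counting interval, filled points for genes called lower and a dashed line at the median of all tested genes, -0.28. The 11 called genes lie between -1.41 (Ccna2) and -0.44 (Mcm2) with total-read scaling; the spike-in scaling calls 0 lower.

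The replicative helicase is a ring of 6 proteins, Mcm2 to Mcm7, that unwinds DNA ahead of the polymerases. Read numbers were not divided by length, and the leading transcripts of these subunits are of like length (2910 to 3589 nt). Without molecular identifiers, amplified copies cannot be told from separate molecules. Mcm2 (177 and 116 reads) and Mcm6 (169 and 152) supplied most, 26.9% and 25.6% of the 659 helicase reads in replicate 1 and 24.3% and 31.9% of the 477 in replicate 2. Mcm7 supplied 21.5% (95% interval 18.5 to 24.9) and 13.6% (10.7 to 17.0), and Mcm4 only 4.25% (2.84 to 6.08) and 5.24% (3.42 to 7.64). The subunits, which act in equal number in the ring, were thus unequal in reads in both libraries.

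Within the ring, 2 subunits passed the test. Mcm7 had 133 and 68.7 CPM (101 ± 45.7, SD, n = 2), a log2 ratio of -0.95 (SE 0.215, adjusted p = 5.02e-05, exact conditional binomial test), and its share of helicase reads had intervals that do not overlap. It stayed lower under TMM scaling at -0.67 but not under spike-in scaling at -0.36. Mcm2 had 166 and 122 CPM, with a log2 ratio of -0.44 (SE 0.172, adjusted p = 0.0453, same exact test), which missed the threshold under TMM scaling at -0.15. With total-read scaling Mcm6 was nearly the same in both libraries, with 159 and 161 CPM and a log2 ratio of 0.02 (95% interval -0.30 to 0.33). Under TMM scaling its ratio was 0.30, not past the threshold. Under spike-in scaling it was 0.61 and called higher (adjusted p = 0.00148, same exact test). Mcm4 had 26.3 and 26.4 CPM, from only 28 and 25 reads. Mcm3 (57.2 and 62.3 CPM) and Mcm5 (77.0 and 63.4 CPM) did not pass.

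Pcna, the sliding clamp that holds polymerases on DNA, had 97.6 and 62.3 CPM, with a log2 ratio of -0.64 (SE 0.234, adjusted p = 0.0258, exact conditional binomial test). Rrm2, the regulated small subunit of ribonucleotide reductase, had 170 and 110 CPM, a ratio of -0.63 (SE 0.177, adjusted p = 0.00237, same exact test). Its partner Rrm1, the large subunit, had 73.2 and 63.4 CPM and did not pass, at -0.20 (SE 0.247). Both Pcna and Rrm2 missed the threshold under TMM scaling, at -0.36 and -0.34. Tyms, which makes thymidylate from deoxyuridylate, had 48.8 and 39.1 CPM. Tk1, the salvage kinase of thymidine, had the highest ratio of the 33 genes, 0.47 (SE 0.313, 38 and 47 reads), not past the threshold.

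A list of 51 other replication genes covers origin licensing, the polymerases and the joining of fragments. Of 39 tested, replicate 2 was lower in 4 and higher in 1, and 34 did not pass, with a median of -0.40. Among all genes 17.9% were lower, a larger share than 4 of 39. Those lower were Rfc3, a clamp loader subunit (40 and 14 reads), Lig1, the ligase that joins Okazaki fragments (72 and 36), Rnaseh2a, a ribonuclease H2 subunit (90 and 42), and Dut, the dUTPase (54 and 26). All 4 lost the call under TMM, DESeq2 and spike-in scaling, where 0 of the 39 were lower and 1, 1 and 2 were higher. The genes of highest mean CPM in this list, Rpa1 (108 and 72 reads), Orc3 (109 and 66), Rfc2 (100 and 64) and Fen1 (91 and 72), did not pass.

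The kinase Cdk1 and its cyclins drive entry into mitosis, and Ccna2 and Cdk1 had the lowest log2 ratios among the 19 mitosis genes of the 39 with at least 20 reads. Ccna2, cyclin A2, had 64 and 21 reads, 60.1 and 22.2 CPM, with a log2 ratio of -1.41 (SE 0.359, adjusted p = 2.40e-04, exact conditional binomial test). Cdk1 had 72 and 25 reads, 67.6 and 26.4 CPM, a ratio of -1.34 (SE 0.332, adjusted p = 2.02e-04, same exact test). Both stayed past the threshold under TMM scaling but not under spike-in scaling, at -0.83 for Ccna2 and -0.75 for Cdk1. Ccnb1, cyclin B1, had 71 and 37 reads, a ratio of -0.76 (SE 0.291, adjusted p = 0.0364, exact), and missed the threshold under TMM scaling at -0.48. Ccnb2, cyclin B2, had 99 and 67 reads, and its ratio of -0.39 (SE 0.228) did not pass.

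Genes of the checkpoint and of the anaphase-promoting complex came next. Cdc20, which activates that complex to end metaphase, had 101 and 49.7 CPM, with a log2 ratio of -1.02 (SE 0.251, adjusted p = 2.16e-04, exact conditional binomial test). It passed under TMM scaling at -0.74 but not under spike-in scaling at -0.43. Ube2c, the ubiquitin-conjugating enzyme of the same complex, had 31 and 14 reads, a ratio of -0.95 (SE 0.458, adjusted p = 0.109, exact), which did not pass. The spindle checkpoint genes were thinly read: Bub1b had 21 and 22 reads, Bub1 13 and 6, and Mad2l1 14 and 4, of which only Bub1b reached the minimum. Bub1b was at a ratio of 0.24 (SE 0.435), the highest of the 19 tested mitosis genes.

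The chromosomal passenger complex joins the kinase Aurkb to Birc5 (survivin) and Cdca8 (borealin) at centromeres and the spindle midzone. Birc5 had 49 and 23 reads, a log2 ratio of -0.90 (SE 0.361, adjusted p = 0.0482, exact conditional binomial test), and missed the threshold under TMM scaling at -0.62. Aurkb (39 and 22 reads, ratio -0.64) and Cdca8 (47 and 28 reads, ratio -0.57) did not pass. Aurka, the centrosomal kinase, had 31 and 18 reads, and its activator Tpx2 14 and 9. The 4 genes other than Birc5 had ratios from -0.64 to -0.44, none past the test.

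None of the following spindle, midzone and centromere members passed the test. Prc1, which bundles midzone microtubules, had 50.7 and 29.6 CPM, with a log2 ratio of -0.76 (SE 0.334, adjusted p = 0.0688, exact conditional binomial test). Kif23, the kinesin of the centralspindlin complex, had 20 and 8 reads, and the 95% interval of its ratio of -1.10 ran from -2.25 to 0.05. Nusap1, a spindle microtubule binding protein, had 45 and 29 reads. Kif11, the kinesin that pushes spindle poles apart, had 11 and 7 reads, below the minimum. Cenpa, the histone H3 variant of centromeres, had 40 and 32 reads, a ratio of -0.15 (SE 0.340). Cenpe, a kinetochore kinesin, had no read in either library, which sets limits of 2.82 and 3.17 CPM. Its longest annotated transcript is 7910 nt, and the part of length in its count was not tested.

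Among genes of chromosome structure, Hmgb2, a DNA-bending protein abundant in proliferating cells, differed by the smallest adjusted p of the mitosis genes. It had 138 and 57 reads, 130 and 60.2 CPM, with a log2 ratio of -1.10 (SE 0.226, adjusted p = 6.30e-06, exact conditional binomial test). It also passed under TMM scaling, but not under spike-in scaling at -0.51. Top2a, the topoisomerase that untangles sister chromatids, had 17 and 15 reads at a ratio of 0.00 (95% interval -0.99 to 0.98). Smc4, a condensin subunit, had 34 and 31 reads, and its partner Smc2 only 3 and 5. Mki67, a widely used marker of proliferation, had 4 and 3 reads, 3.75 and 3.17 CPM, at about the level of 3 reads.

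A list of 50 other mitosis genes covers kinetochores, kinesins, condensin and regulators of anaphase. Of 36 tested, 5 were lower in replicate 2, 0 were higher and 31 did not pass, with a median of -0.30, close to that of all genes. Of the 36 ratios 28 lay below 0, as did 6297 of 9211 over all genes, of which 17.9% were called lower. Those lower were Bub3, a checkpoint protein (200 and 109 reads), Cks1b, a Cdk-binding subunit (80 and 35), Tacc3, a spindle protein (51 and 14), the kinase Pbk (65 and 32) and Fbxo5, an inhibitor of the anaphase-promoting complex (23 and 7). Tacc3 had a log2 ratio of -1.66 (SE 0.429, adjusted p = 2.43e-04, exact conditional binomial test) and was lower under TMM and spike-in scaling too. The other 4 lost the call under both: TMM and DESeq2 scaling each left 1 lower and 0 higher, and spike-in scaling 1 lower and 2 higher. Pttg1, securin, had 72 and 56 reads and did not pass.

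The D cyclins link growth signals to the cell cycle. Ccnd3 had more reads than any other of the 39 genes in both libraries, 389 and 201, or 365 and 212 CPM (289 ± 108, SD, n = 2). Its log2 ratio was -0.78 (SE 0.125, adjusted p = 3.56e-09, exact conditional binomial test), the smallest p of the 33 genes, and it passed under TMM but not under spike-in scaling. It supplied 81.7% (95% interval 77.9 to 85.1) of D cyclin reads in replicate 1 and 77.0% (71.4 to 82.0) in replicate 2. Ccnd2 had 55 and 33 reads and Ccnd1 32 and 27, neither past the test. Ccnd3 had the most D cyclin reads in both libraries, and its share of them had overlapping intervals. Read numbers were not divided by length, and the leading annotated transcripts are of unlike length. They measure 1977 nt for Ccnd3, 3740 nt for Ccnd1 and 6330 nt for Ccnd2. The part of length in these shares was not tested.

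Of 30 genes that control G1, 20 were tested, 5 were lower in replicate 2 and 0 were higher, with a median of -0.39, beside 17.9% of all genes called lower. Cdkn1c, the imprinted inhibitor p57 that holds cells out of the cycle, had 1203 and 746 reads, 1129 and 788 CPM, with a log2 ratio of -0.52 (SE 0.0672, adjusted p = 1.65e-13, exact conditional binomial test). Cdk4, the partner of the D cyclins, had 234 and 156 reads (ratio -0.41), Myc 157 and 74 (ratio -0.91), Cdc25a 31 and 10, and Cdkn2d 51 and 23. Tfdp1, the dimer partner of E2F (152 and 107 reads), and Trp53 (138 and 95) did not pass. Under TMM scaling 2 stayed lower, Cdkn1c and Myc, while Cdk4 (-0.13), Cdc25a and Cdkn2d lost the call; DESeq2 scaling also left 2. Under spike-in scaling 0 were called, so the calls depend on the scaling. There Cdkn1c stood at 0.07 and Cdk4 at 0.17, while Myc (-0.32), Cdc25a (-0.83) and Cdkn2d (-0.37) stayed below 0.

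Reads are sorted by how their transcript model matches the annotation. Known models match an annotated transcript, ISM models hold part of one, NIC models rejoin annotated splice sites, NNC models have an unannotated splice site, and Genomic models overlap a gene without its splicing. Of the reads of the 39 genes 81.8% were Known in each library, against 76.1% and 78.2% of all gene reads. By group the Known share was 84.7% and 85.2% for replication, 77.7% and 76.2% for mitosis and 83.8% and 83.5% for D cyclins. Of 28 members tested, 0 passed in Known share by Fisher's exact test after adjustment, where 0.637% of 5969 genes did. At an unadjusted p under 0.05 there was 1, Birc5, with 46 Known reads of 49 and 17 of 23.

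ISM was the largest class among reads that were not Known. ISM reads made up 8.70% of replication reads and 11.5% of mitosis reads over both libraries, against 10.7% of all gene reads. Ccnb2 alone held 92 of the 184 mitosis ISM reads. Without Ccnb2, a check added after seeing the data, the mitosis share was 6.43%, and the Known share of mitosis reads was 81.2% in place of 77.1%. Replication reads were not trimmed in the same way, though Mcm2 alone held 75 of their 165 ISM reads. The 6.43% is therefore not set against the replication share. Of 363 ISM reads over all 39 genes 323 were suffixes, which hold the 3′ end. Over all annotated genes 143515 of 214592 ISM reads were suffixes. Genomic reads made up 12.8% and 11.9% of D cyclin reads, against 0.630% and 0.510% for replication and 1.15% and 0.358% for mitosis. Over all annotated genes they made up 5.36% and 4.12%, between the D cyclins and the other groups. Of the 92 Genomic D cyclin reads 88 lay wholly in the last exon: 22 of 23 in Ccnd1, 31 of 31 in Ccnd2 and 35 of 38 in Ccnd3. All 92 were unspliced. Without Genomic reads the Ccnd1 ratio changed sign, from -0.07 to 0.31, not past the threshold in either case, and the number of genes called lower stayed at 11.

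**Figure D4:**
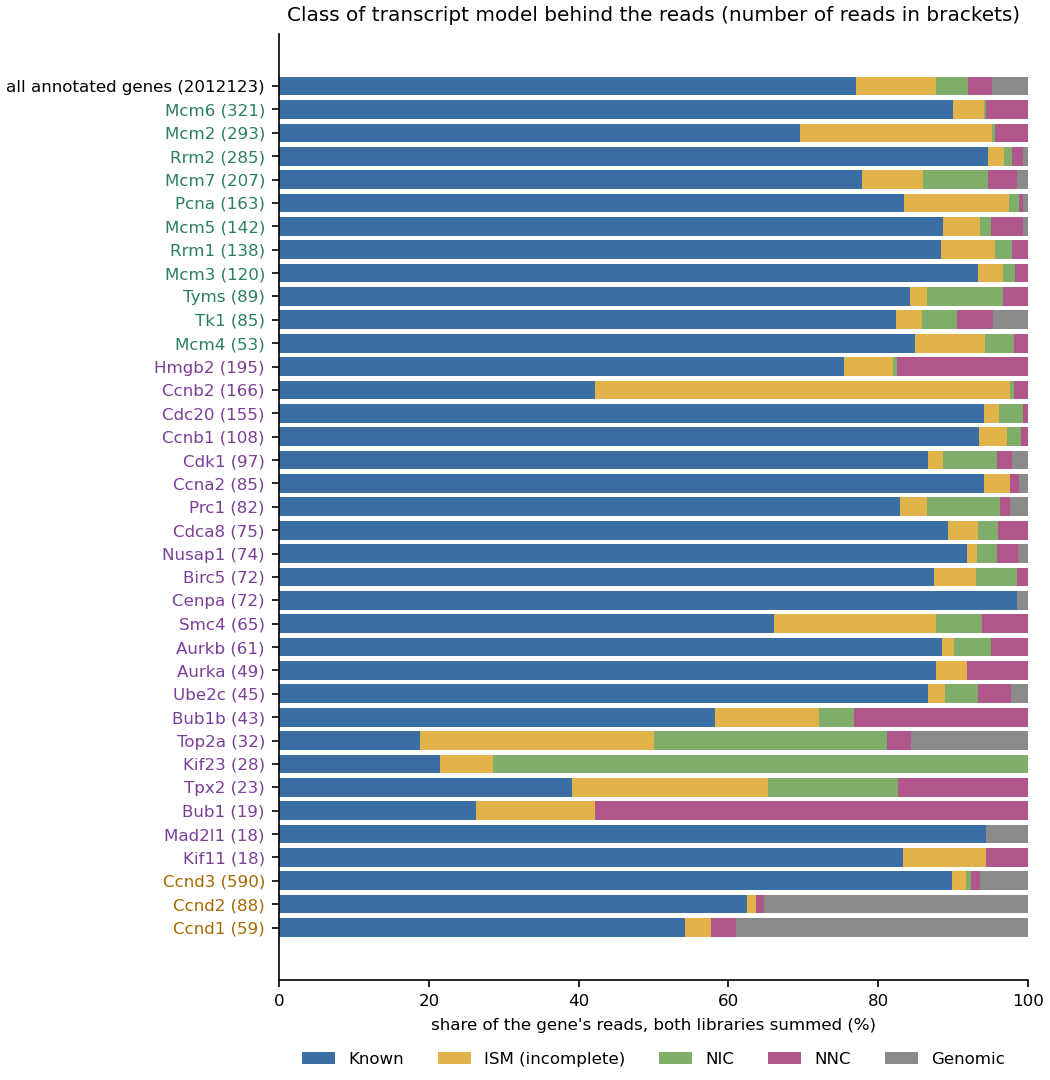
Share of each gene's reads (%, both libraries summed) by class of transcript model, for all annotated genes and the 36 genes with at least 10 reads, with read numbers in brackets. Known reads lead in most rows, ISM in Ccnb2, NIC in Kif23 and NNC in Bub1. In Top2a ISM and NIC are equal and both above Known, and Genomic reads stand out in Ccnd1 and Ccnd2.

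Long transcripts were not always read whole. Mki67, whose longest annotated transcript is 10061 nt, had 0 Known reads of 7, and Top2a (5221 nt) 18.8% Known of 32. Across the 36 members with at least 10 reads Spearman's rho of longest annotated length and Known share was -0.16, and -0.44 across 11279 genes with at least 10 reads, which share the same 2 libraries. Annotated length does not order the Known shares of the members strictly, since Mad2l1, with a leading transcript of 7557 nt, was 94.4% Known of 18 reads. Known is a match to an annotated model, and whether these reads span its whole length was not tested. Ccnb2, with a single annotated transcript of 1531 nt, was only 42.2% Known. Of its reads 54 and 34 ended in a model of exons 8 to 9 of 9 (449 nt), more than the 39 and 31 on the full Ccnb2-201. Mcm2 had 125 and 79 reads on Mcm2-201, 26 and 18 on a suffix of exons 15 to 16 of 16, and 8 and 8 on a suffix lacking the first exon.

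Smaller fragments were seen in other genes. Pcna had 6 and 6 reads on a suffix of exons 4 to 6 of 6 and 7 and 0 on a piece of exon 6, Hmgb2 5 and 2 on a suffix of exons 2 to 5, Ccnd3 4 and 2 on exons 3 to 5, Mcm7 4 and 1 on a suffix and Smc4 3 and 2. Mcm3-203, a single-exon transcript annotated as a retained intron, had 3 and 5 reads. Ccnd2-204, a short annotated form of 2 exons, had 3 and 5 reads. Top2a had 3 and 2 reads on Top2a-201, 3 and 2 on an incomplete form of 35 exons and 5 and 0 on an unspliced piece of its last exon. None of these fragments was as frequent as the Ccnb2 suffix.

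Over both libraries summed, inclusion and skipping of an internal exon were closest to equal in 2 genes of the spindle midzone. Each has a 42-nt coding exon, a length that keeps the reading frame, held by 46.2% of Prc1 reads and 44.4% of Kif23 reads. The Kif23 value rests on only 27 reads. The exons are shown in capitals with 15 coding bases on each side: Kif23 exon chr9:61933229-61933270 (minus strand, annotated in Kif23-204) and Prc1 exon chr7:80313527-80313568 (plus strand, in Prc1-210). The third is the 99-nt exon of Nusap1 at chr2:119633720-119633818 (plus strand, in Nusap1-202), shown because it was skipped in reads of a single library.
Kif23: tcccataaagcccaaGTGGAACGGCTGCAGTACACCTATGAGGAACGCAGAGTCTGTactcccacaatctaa
Prc1: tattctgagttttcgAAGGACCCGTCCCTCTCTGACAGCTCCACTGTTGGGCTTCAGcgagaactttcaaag
Nusap1: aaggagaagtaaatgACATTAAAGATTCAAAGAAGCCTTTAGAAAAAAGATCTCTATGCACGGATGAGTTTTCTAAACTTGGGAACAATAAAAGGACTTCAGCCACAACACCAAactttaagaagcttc

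Prc1 reads held the 42-nt exon in 23 of 51 cases in replicate 1 and 13 of 27 in replicate 2, 46.2% in sum (exact 95% interval 34.8 to 57.8). Its reads were spread over Prc1-206 (19 and 10), Prc1-210 (20 and 9), Prc1-202 (6 and 3) and an unannotated combination (2 and 3) of known sites. These forms also differed in a splice donor with sites 77 nt apart. The leading form held 38.8% and 35.7% of spliced reads, so no form held most Prc1 reads in either library.

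Kif23 reads held its 42-nt exon in 7 of 19 and 5 of 8 cases, 44.4% in sum (25.5 to 64.7). A second coding exon of 312 nt (chr9, 61923905 to 61924216), annotated in Kif23-201, was held by 10 of 19 and 4 of 8, 51.9% in sum (31.9 to 71.3). The models with most reads were unannotated combinations of annotated sites: 24 exons with both (5 and 3 reads) and 22 exons with neither (6 and 2). The annotated Kif23-201 had 5 and 1. With 28 reads in all, each share is known only within a wide interval.

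Nusap1 reads held the 99-nt exon in 35 of 43 cases in replicate 1 and 29 of 29 in replicate 2, with 8 and 0 reads on Nusap1-201, which skips it. The leading form's share, 32 of 43 against 28 of 29, gave p = 0.0212 and an adjusted p of 0.466 (Fisher's exact test). Of 9 members tested for the share of the leading form 0 were called and 1, Nusap1, had an unadjusted p under 0.05, where 1.15% of 2969 genes were called. In Cenpa a 137-nt exon (chr5, 30669692 to 30669828), which no annotated form has wholly in its coding part, was in 22 of 40 and 24 of 31 reads. The leading Cenpa-202 (22 and 23 reads), which holds it, is annotated as a target of nonsense-mediated decay, and the protein-coding Cenpa-205 had 17 and 7. The form annotated for decay thus held most spliced Cenpa reads, 55.0% and 74.2%. In Birc5 a 110-nt exon, whose loss would shift the frame, was held by 46 of 47 and 18 of 21 reads.

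**Figure D5:**
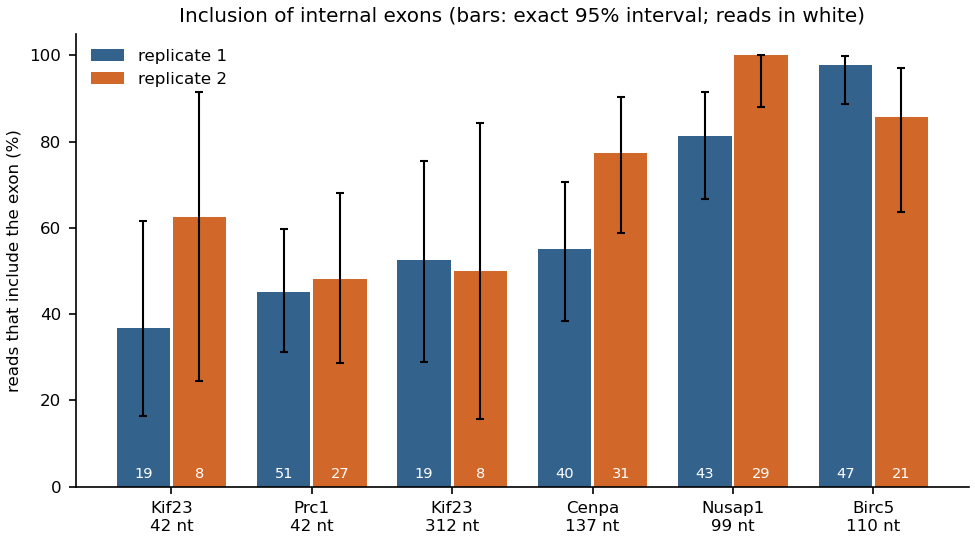
Share of spliced reads (%) that include each of 6 internal exons in replicate 1 and replicate 2, with exact 95% intervals as error bars and the number of reads in white. The Prc1 exon is at 45.1% and 48.1%, and the intervals of the 2 libraries overlap for all 6 exons.

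Other forms differed at a splice site or a first exon. Mcm5 reads divided among Mcm5-201 (38 and 24), Mcm5-205 (24 and 22), which starts downstream of the first exon, and Mcm5-203 (11 and 7), whose first donor lies 24 nt away. Mcm7 had 12 and 1 reads on an unannotated combination with another first exon, beside 108 and 53 on Mcm7-201. The share of the leading form did not pass Fisher's exact test in either gene, at 49.4% and 42.1% for Mcm5 and 84.4% and 89.8% for Mcm7. Tyms had 6 and 2 reads on an acceptor 10 nt away from that of Tyms-201 (44 and 35), and Aurkb-202 had 3 and 4 reads beside 31 and 16 on Aurkb-201. Hmgb2 had 22 and 5 reads on an unannotated acceptor 4 nt downstream of the annotated one, outside the coding part, against 103 and 45.

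Thinner evidence for paired annotated sites came from 4 mitosis genes. Tpx2 used donors 13 nt apart in 8 and 6 against 2 and 2 reads, and Aurka donors 78 nt apart in 3 and 1 against 27 and 16. Top2a used acceptors 3 nt apart in 3 and 5 against 8 and 6 reads, and acceptors 88 nt apart in 4 and 2 against 5 and 6. Smc4 used donors 11 nt apart in 29 and 24 against 1 and 3. Both sites of each pair were read in both libraries.

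Bub1 was read mostly with an unannotated splice site. An acceptor 3 nt downstream of the annotated one was used in 9 and 4 reads, against 3 and 2 on the annotated site, and it removes the 3 coding bases chr2:127821857-127821859 (minus strand), in capitals below with their coding neighbours. The model with this site led with 8 and 2 reads over 25 exons, and Bub1-201 had 3 and 2. Loss of 3 bases keeps the frame, and the capitals end in AG, the letters that usually close an intron.
Bub1: aaaagtctaatatTAGggaacaaagggtg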

How the data were processed

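Adrenal gland RNA was read as cDNA molecules in 2 long-read libraries. Per the file headers, the deposited values are raw read counts per transcript model, for models with at least 1 read, with annotations built for each library on mm10 and GENCODE M21. The models carry TALON-style classes. Which aligner, versions and read filters were used is not given in the sources used here. Other deposited values used, per the file headers, are exon start and end positions on mm10.

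Reads were summed per gene over all classes, without ERCC spike-ins, and CPM was computed over 1065570 and 946553 gene reads. A gene with 20 or more summed reads entered a two-sided exact conditional binomial test (SciPy 1.17.1) with Benjamini-Hochberg adjustment over 9211 genes at 0.05. Log2 ratios have 0.5 reads added and counting standard errors. Leading forms (at least 20 spliced Known, NIC and NNC reads in each library, 2 or more forms of at least 5 summed reads) and Known shares went into Fisher's exact test. Both tests were tried on simulated reads with set changes and counting error only. Such reads cannot show how the tests behave when libraries differ beyond counting error. Alternatives tried were TMM (edgeR 4.0.16), DESeq2 1.42.0 size factors, spike-in scaling, other minimums, fewer classes and an assumed spread. Reads lack molecular identifiers, so intervals cover counting error only.

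Text names every member, the 4 genes of highest mean CPM in each other pathway list, those passing against a list's direction, and every second transcript with at least 5 summed reads; markers are given mainly in sum. Other genes called lower in small counts, and Hnf4a, Myh1 and Plvap, were chosen after their values were seen. One gene that this rule names is not reported here. The members and lists were chosen with earlier results of these data known. Promoter windows are from RefSeq (GRCm38.p6) and exon sequences from GENCODE M21.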

Additional observations from a re-analysis of the deposited data

How the results depend on the processing

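The count of 11 genes lower in replicate 2 moved to 6 under TMM and to 6 under DESeq2 size factors, and to 0 under spike-in scaling and 0 under an assumed coefficient of variation of 0.2; the count of higher genes moved from 0 to 3 under spike-in scaling. It was 9 with a minimum of 10 summed reads, 8 with none, and 11 both without Genomic reads and on Known, NIC and NNC reads only. TMM and DESeq2 both lost Pcna, Mcm2, Rrm2, Ccnb1 and Birc5. Signs changed, with none of these ratios past the threshold before or after except Mcm2 in the main comparison, as follows. Under spike-in scaling Mcm2 became 0.15, Mcm5 0.31, Tyms 0.27, Rrm1 0.38, Ccnb2 0.20, Cenpa 0.44, Cdca8 0.02, Nusap1 0.13, Tpx2 0.15, Ccnd1 0.52 and Ccnd2 0.03. Under TMM Mcm5 became 0.01, Rrm1 0.08, Cenpa 0.14 and Ccnd1 0.21, and under DESeq2 0.02, 0.09, 0.15 and 0.22. On Known, NIC and NNC reads only Mcm4 became -0.09, Mcm6 -0.08 and Ccnd1 0.48; without Genomic reads Mcm4 became -0.01 and Ccnd1 0.31. The cause of these shifts was not tested, beyond the scaling itself. Over all 9211 genes the calls were 790 higher and 1646 lower with total reads, 1151 and 552 under TMM, 1165 and 523 under DESeq2, 2071 and 170 under spike-in scaling, and 446 and 67 under the assumed spread.

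Leaving out each library gave a range of 0.0828% to 0.104% for the replication share, 0.0590% to 0.0975% for mitosis and 0.0276% to 0.0447% for the D cyclins; a ratio between the libraries has no value with 1 left out. With 10 reads in each library 40 leading forms and 36 Known shares differed over all genes and 0 among the members. In the 200 bases before the start E2F lay in 4 of 10 replication promoters and CHR in 10 of 19 mitosis promoters. No paired analysis was possible because the 2 libraries form a single group. Depth limits Mki67, Bub1, Mad2l1, Kif11, Smc2 and Cenpe, which were not tested, and exon shares from under 30 reads. Whether transcript length also lowered the counts of Mki67 and Cenpe was not tested.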

Other observations

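Reads on the strand opposite to the members, from models given no annotated gene, were few. Tyms had 9 and 2, Mcm5 6 and 2, Ccnd3 6 and 2, Kif11 3 and 3, and Tpx2 5 and 0. Kif11 had 6 of these against 18 reads of its own, the highest share of any member with at least 10 reads of its own. Cenpe, with 0 reads on its own strand, had 2 on the opposite strand in replicate 1. They were not counted for any gene.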
